A study of Homo sapiens with 18 samples.

Results

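The comparison described here set 3 arrays of NCI-H1299 cells transfected with a tethered wild-type p53 construct (tethered WTp53, exp d, e and f) against 3 arrays of the same cells transfected with empty vector (exp d, e and f). These are 6 of the 18 samples in the series, and they were chosen by their titles. All probe sets with exactly 1 gene symbol were analysed, which is 19460 of the 33297 on the array. NCI-H1299 is a non-small cell lung carcinoma line that lacks p53. Cells were transiently transfected with plasmids of the pIRES-2EGFP type, which also encode green fluorescent protein, using the lipid reagent Lipofectamine. Green fluorescent cells were sorted, and total RNA was taken 40 hours after transfection and hybridized to Affymetrix Gene arrays. The 3 WTp53 arrays of the same set (exp d, e and f), which carried untethered wild-type p53 in the same kind of vector, served as a second comparison. All 3 groups share the p53-null line, the vector backbone and the sort, and p53 of either form was supplied from a plasmid in 1 cell line. The labels do not say what is joined in the tethered construct. The transfection field of its arrays reads ΔNp53:WTp53, which goes against their title and description, so every statement on tethered WTp53 rests on the titles. The series calls exp d, e and f control experiments and does not say that they were independent transfections. The p-values therefore measure only the spread between these arrays, which may be technical.

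The p53 protein is a transcription factor that binds DNA as a tetramer and is known for switching on genes of cell cycle arrest, apoptosis, DNA repair and its own degradation. Among its direct targets is CDKN1A, whose product p21 inhibits cyclin-dependent kinases and thereby keeps the E2F and DREAM repressor complexes on cell cycle promoters. Target genes with a p53 element are thus known to rise when p53 returns to a null cell, while genes of replication and mitosis are known to fall through p21.

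The deposited values are log2 intensities after RMA, and differences below are on that log2 scale, each with its standard error from limma (n = 3 arrays in every group). Array medians over all rows were 7.06 to 7.07 with tethered WTp53, 7.01 to 7.04 with WTp53 and 7.02 to 7.05 with empty vector. Correlations within groups were 0.9969 to 0.9979 for the tethered arrays and 0.9982 to 0.9984 for the vector arrays, over probe sets, which are not independent replicates. The median SD of a probe set between replicates was 0.070 for tethered WTp53, 0.050 for WTp53 and 0.0557 for the vector. Second-set values were given to at most 2 decimals, and some replicates were identical, such as FBXO5 at 9.11 on each WTp53 array. The tethered array exp f stood apart in a small set of genes: 16 genes were at least 2-fold above the mean of exp d and e on it, against 0 above by the same measure on each other array of the 9. By that measure 4 genes on tethered exp d and 2 on tethered exp e lay at least 2-fold below the other 2 arrays of the group, and 0 on the other 7 arrays. The largest gaps were in CXCL10 (3.37), CXCL11 (2.43), CCL5 (2.08), RSAD2 (1.94) and XAF1 (1.69), which are interferon-induced chemokines and antiviral genes. Results that rest on such genes are given with and without exp f. Of 13 markers of epithelial and lung carcinoma lines 5 were higher and 0 lower, and 3 were higher without the tethered array exp d or f. The marker counts here stand beside 21.2% of all probe sets called higher and 26.0% called lower. The epithelial keratin KRT8 had 11.26, 11.34 and 11.19 with tethered WTp53 and 10.67, 10.60 and 10.73 with vector. The mesenchymal marker VIM had 12.52, 12.59 and 12.56 with tethered WTp53 and 12.41, 12.42 and 12.41 with vector. The epithelial adhesion molecule EPCAM had 5.61, 5.56 and 5.39 with tethered WTp53 and 5.57, 5.61 and 5.57 with vector. Levels of different probe sets cannot be compared as expression levels. Of 13 leukocyte and blood markers 0 were called higher and 2 lower (CD14 and ITGAM). Of 12 fibroblast and endothelial markers only ACTA2 was called, and of 7 neuronal markers only ENO2, both higher. In sorted bulk cells, a change in the share of cells in a state and a change in RNA per cell cannot be told apart.

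Between tethered WTp53 and empty vector 9182 of 19460 probe sets (47.2%) were called in either direction. Of these, 4117 were higher (21.2% of 19460) and 5065 lower (26.0%), by limma with Benjamini-Hochberg adjusted p under 0.05. Every count of called list members against vector is to be read beside these shares. The lists were themselves chosen with earlier results of these data known. With each array's median subtracted the split was 3291 higher and 6646 lower. At least 2-fold changes were far fewer and mostly rises, with 622 probe sets higher (3.20%) and 167 lower (0.858%). All 3 tethered arrays lay above all 3 vector arrays in 4632 probe sets (23.8%) and below them in 5472 (28.1%). Without the tethered array exp f 3919 probe sets were higher and 4920 lower. The median difference over all 18395 genes, 1 probe set each, was 0.00. An exact permutation test of 3 arrays against 3 cannot give a p under 0.1, so the calls rest on limma's spread shared over genes.

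CDKN1A had log2 values of 11.83, 11.81 and 11.77 on the tethered arrays, against 8.67, 8.44 and 8.63 on the vector arrays. The groups lay far apart, and the tethered arrays differed among themselves by less than the vector arrays did. The difference was 3.22 ± 0.06, or 9.34-fold (limma adjusted p = 8.68e-11). GDF15, a secreted stress cytokine, had 11.54, 11.36 and 11.12 with tethered WTp53, against 7.51, 7.46 and 7.59 with vector, a rise of 3.82 ± 0.09 (14.1-fold). PLK3, a stress-responsive polo-like kinase, had 11.47, 11.50 and 11.21 with tethered WTp53 and 7.78, 7.61 and 7.65 with vector, a rise of 3.71 ± 0.08. In each of these genes the lowest tethered array exceeded the highest vector array by more than the whole spread within either group.

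The largest rise of all genes was in FAM13C, with 10.69, 10.67 and 10.55 on the tethered arrays and 6.41, 6.22 and 6.27 on the vector arrays, 4.34 ± 0.06 or 20.2-fold (limma adjusted p = 3.71e-11). CCNA1, a cyclin best known from male germ cells, rose by 3.77 ± 0.07. PDE3A, a phosphodiesterase that degrades cyclic nucleotides, rose by 3.67 ± 0.06. SLC4A11, a membrane transporter, rose by 3.39 ± 0.06, and CYFIP2, a subunit of the WAVE actin-regulatory complex, by 3.35 ± 0.05. OSR2, an odd-skipped zinc finger factor, rose by 3.20 ± 0.06, and ANGPTL4, a secreted inhibitor of lipoprotein lipase, by 3.12 ± 0.13. RAB27B, a small GTPase of vesicle release, rose by 3.09 ± 0.08. TP53INP1, a p53-induced nuclear and autophagy protein, had 10.11, 10.25 and 10.10 with tethered WTp53 and 6.65, 6.80 and 7.02 with vector. CCL5 and IFI44L, both interferon-inducible, completed the 14 largest rises and are described with the interferon genes. Only called genes whose 3 tethered arrays all lay above the 3 vector arrays could enter these 14, so that separation is no added result.

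**Figure D1:**
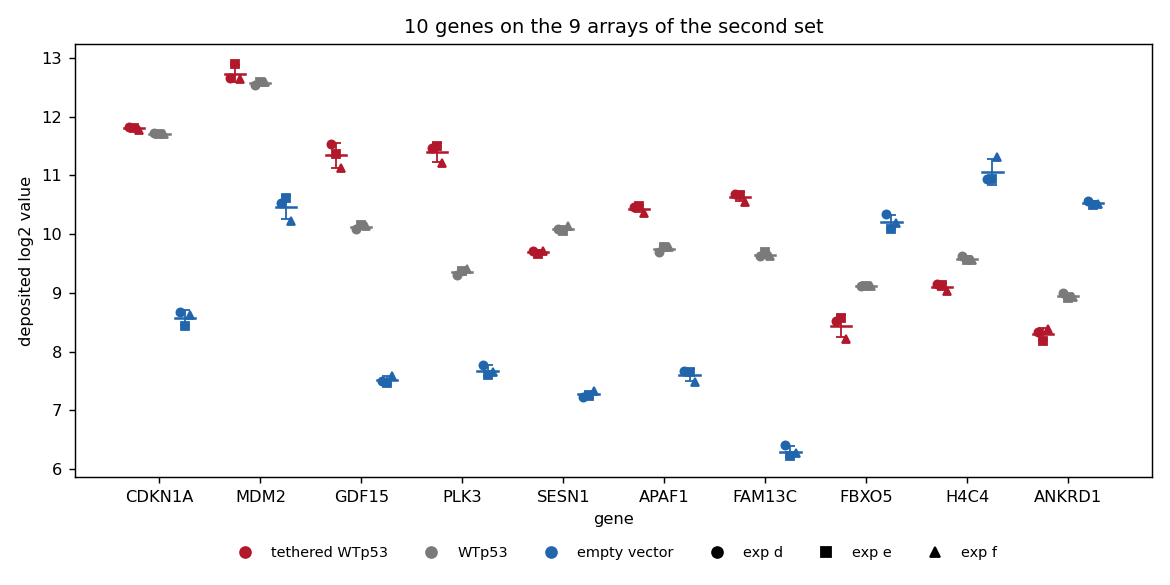
Deposited log2 values of 10 genes (x axis) on the 9 arrays of the second set, with tethered WTp53 in red, WTp53 in grey and empty vector in blue; the marker shape gives the experiment letter, and lines are the mean ± SD of 3 arrays. CDKN1A and MDM2 lie at nearly the same height with tethered WTp53 and WTp53, PLK3 and GDF15 lie higher with tethered WTp53 than with WTp53, SESN1 lies lower, and FBXO5, H4C4 and ANKRD1 are lowest with tethered WTp53.

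Among genes that restrain p53, MDM2, the ubiquitin ligase that targets p53 for degradation, had 12.65, 12.90 and 12.64 with tethered WTp53 and 10.53, 10.61 and 10.23 with vector, a rise of 2.27 ± 0.10 (4.83-fold). PPM1D, the phosphatase WIP1 that removes damage-induced phosphates from p53, had 11.51, 11.48 and 11.55 with tethered WTp53 and 10.20, 10.21 and 10.26 with vector, a rise of 1.29 ± 0.04. The other genes of this group did not move together. COP1 rose by 0.55 ± 0.05 and TRIM24 by 0.58, whereas RCHY1 (Pirh2) fell by 0.53 on the log2 scale, SIAH1 by 0.25 and MDM4, the MDM2 homologue, by 0.32. CCNG1, a cyclin G that recruits a phosphatase to MDM2, rose by 0.43, and the deubiquitinase USP7 was not called (-0.02). Of the 10 genes 5 rose and 3 fell, against 21.2% higher and 26.0% lower over all probe sets, with a median of 0.22.

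Of 17 measured cell cycle arrest targets 15 rose, 10 of them at least 2-fold, and 1 fell, against 21.2% of all probe sets called higher. Their median was 1.21, and the medians on exp d, e and f, each set against the vector mean, were 1.30, 1.29 and 1.05. Beside CDKN1A, GDF15, PLK3 and TP53INP1 they included SESN1, a sestrin that restrains mTORC1, with 9.72, 9.67 and 9.72 on the tethered arrays and 7.23, 7.25 and 7.34 on the vector arrays (2.43 ± 0.04). RPRM (reprimo, an arrest factor in G2) rose by 2.04, the polo-like kinase PLK2 by 1.52, and ZMAT3, an RNA-binding zinc finger protein, by 1.29. SFN (14-3-3 sigma) rose by 1.21 and E2F7, a repressor of E2F targets, by 1.10. GADD45A, a growth arrest gene, rose less (0.80), as did SESN2 (0.37). NEK3, a kinase, was the member that fell (-0.38), and CCNG2 was not called (0.07).

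Apoptosis targets moved in 1 direction: 22 of 24 rose, 12 of them at least 2-fold, and 0 fell, with a median of 0.98. APAF1, the scaffold of the apoptosome, had 10.46, 10.48 and 10.36 with tethered WTp53 and 7.67, 7.65 and 7.49 with vector, a rise of 2.83 ± 0.06 (7.11-fold). TP53I3, a quinone oxidoreductase linked to oxidative cell death, rose by 2.74 ± 0.06, and DRAM1, a lysosomal regulator of autophagy, by 2.15 ± 0.05. The death receptor FAS rose by 1.88, TNFRSF10D by 1.14, TNFRSF10A by 0.94 and TNFRSF10B by 0.73. Members of the BCL2 family rose by unequal amounts. PMAIP1 (NOXA) rose by 1.62, BID by 1.03, BIK by 0.58, BAX by 0.56 and BBC3 (PUMA) by 0.27. PIDD1, which activates caspase-2, rose by 1.34, the nuclease AEN by 1.33 and PERP, a desmosomal protein, by 1.14. STEAP3 (0.09) and CASP10 (0.10) were not called.

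Of the 10 measured DNA repair targets 6 rose and 2 fell, with a median of 0.38. DDB2, the sensor of ultraviolet damage, had 10.96, 10.87 and 10.85 with tethered WTp53 and 8.92, 8.75 and 8.99 with vector, a rise of 2.01 ± 0.06 (4.02-fold). POLH, the translesion polymerase eta, rose by 1.81 ± 0.05, the ribonucleotide reductase subunit RRM2B by 1.15 ± 0.05, and XPC, the damage sensor of global excision repair, by 0.88 ± 0.05. FANCC of the Fanconi core complex (-0.45) and REV3L, the catalytic subunit of polymerase zeta (-0.21), were lower. In metabolism and redox 8 of 15 targets rose and 0 fell, with a median of 0.35. ACER2, an alkaline ceramidase, rose by 1.45 ± 0.05, the pantothenate kinase PANK1 by 1.29 ± 0.05, CMBL, a hydrolase, by 1.26 ± 0.07, and TIGAR, which lowers fructose-2,6-bisphosphate, by 1.10 ± 0.05. SCO2 (0.07), SOD2 (0.15), GPX1 (0.03) and ALDH4A1 (0.14) were not called. Of 34 genes on a list of other reported p53 targets, which holds TNFRSF10B again, 28 rose and 0 fell, with a median of 1.05. KITLG, the ligand of the KIT receptor, rose by 2.87, RRAD, a Ras-related GTPase, by 2.49 ± 0.06, SUSD6 by 2.38 and the ubiquitin ligase RNF19B by 1.97 ± 0.04. ZNF79, a zinc finger gene, rose by 1.75 ± 0.05, and EPHA2, an ephrin receptor, by 1.22 ± 0.04. SPATA18 (-0.03), EDA2R (0.02) and TP53INP2 (-0.01) were not called.

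The p53 consensus is a pair of decamers, and promoters from 250 bases before to 50 after the start (RefSeq, GRCh38.p14) were scanned on both strands for a pair with at most 1 mismatch per decamer and up to 13 bases between them. The window was available for 14240 of the 18395 genes. A pair was found in 4.38% of all these promoters, in 4.77% of those of genes called at least 2-fold higher (23 of 482) and in 4.60% of those of the p53 lists (4 of 87). Genes called at least 2-fold lower held it in 6.98% (9 of 129), which is above the share of the genes that rose. Histone promoters held it in 13.3% (4 of 30) and those of the mitosis and G1/S lists in 1.75% (1 of 57). No test was run on these shares. Many known p53 elements lie in introns or at distal sites that this window leaves out. Among called genes of the p53 lists, SESN1 and CCNG1 could be shown, with the decamers in capitals. A pair without mismatch was found in 3 of the 14240 promoters, those of MCC, PTCHD4 and DYNC2H1. MCC, a gene mutated in colorectal cancers, was chosen after its values were seen, and it is shown because it alone of the 3 was called at least 2-fold higher.
SESN1 (chr6:109094797-109095096, minus strand): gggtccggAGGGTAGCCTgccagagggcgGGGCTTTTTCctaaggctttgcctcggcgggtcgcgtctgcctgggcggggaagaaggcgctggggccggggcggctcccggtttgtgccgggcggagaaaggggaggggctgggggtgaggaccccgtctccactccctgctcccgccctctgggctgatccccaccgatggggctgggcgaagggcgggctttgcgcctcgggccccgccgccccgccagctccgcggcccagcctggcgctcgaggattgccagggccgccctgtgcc
CCNG1 (chr5:163437321-163437620, plus strand): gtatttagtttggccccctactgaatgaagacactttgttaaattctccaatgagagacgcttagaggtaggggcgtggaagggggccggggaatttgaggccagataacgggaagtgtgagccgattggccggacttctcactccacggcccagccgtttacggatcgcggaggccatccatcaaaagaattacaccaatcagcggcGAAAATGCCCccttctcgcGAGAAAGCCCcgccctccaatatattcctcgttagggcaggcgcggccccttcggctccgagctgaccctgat
MCC (chr5:113488404-113488703, minus strand): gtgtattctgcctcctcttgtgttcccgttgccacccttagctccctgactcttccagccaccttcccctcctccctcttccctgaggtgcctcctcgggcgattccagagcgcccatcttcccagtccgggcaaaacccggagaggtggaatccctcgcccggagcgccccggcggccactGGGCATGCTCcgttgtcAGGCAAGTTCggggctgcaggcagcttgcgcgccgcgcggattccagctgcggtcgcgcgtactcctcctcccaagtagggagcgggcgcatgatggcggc
MCC had 9.59, 9.42 and 9.27 with tethered WTp53, against 8.03, 8.09 and 8.16 with vector, a rise of 1.33 ± 0.07 (limma adjusted p = 8.75e-08). PTCHD4 differed by 0.23 (0.41 on its other probe set) and DYNC2H1 by -0.11, the second of these not called. A match is a description of letters and not evidence of binding.

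Genes of DNA replication and the G1/S transition were mostly lower. FBXO5 (EMI1), an inhibitor of the anaphase-promoting complex, had 8.53, 8.57 and 8.22 with tethered WTp53, against 10.34, 10.09 and 10.19 with vector. All 3 tethered arrays lay well below the vector arrays, by 1.77 ± 0.09 or 3.40-fold (limma adjusted p = 5.95e-08). CDC6, which loads the replicative helicase, fell by 0.93 on the log2 scale, PRIM1, the primase subunit, by 0.88 and MCM6 of the helicase by 0.79. CLSPN (claspin, a checkpoint adaptor) differed by -1.11 on the brighter of its probe sets and by -0.71 on the other, and CCNE2 (cyclin E2) by -1.04. Of 32 members 28 fell and 3 rose, against 26.0% of all probe sets called lower, with a median of -0.56, and 22 of them were lower with the spread of all 18 arrays. The 3 that rose were PCNA, the sliding clamp and itself a p53 target (0.78), CCNE1, cyclin E1 (0.70), and RRM1, the large ribonucleotide reductase subunit (0.21).

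Of 35 mitosis genes (G2/M) 34 fell and 0 rose, with a median of -0.58. The members fell by modest amounts, 3 of them at least 2-fold, and the list medians on exp d, e and f were -0.56, -0.56 and -0.57. CDK1, the kinase that drives mitotic entry, differed by -1.10, CENPE, a kinetochore motor, by -1.08, and TOP2A, which untangles sister chromatids, by -1.07. TTK (MPS1), the spindle checkpoint kinase, had 9.10, 9.23 and 8.99 with tethered WTp53 and 10.04, 10.05 and 10.11 with vector (-0.96 ± 0.06). CENPF had 8.85, 8.97 and 8.79 with tethered WTp53 and 9.77, 9.87 and 9.81 with vector (-0.95 ± 0.05). NDC80, of the outer kinetochore, and ECT2, an activator of cytokinesis, differed by -0.64 ± 0.04 and -0.59 ± 0.04. CDC20, which activates the anaphase-promoting complex, was the member not called (-0.01). With the spread estimated over all 18 arrays of the series, 15 of the 35 were called lower and ECT2 was not (limma adjusted p = 0.0863).

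All 13 measured genes of homologous recombination and Fanconi repair fell, with a median of -0.74; 8 were called with the spread of all 18 arrays. XRCC2, a recombination gene, had 8.82, 8.76 and 8.98 with tethered WTp53 and 10.06, 9.91 and 9.99 with vector (-1.13 ± 0.06). FANCM, a DNA translocase, differed by -1.07 ± 0.07, EXO1, an end-resecting nuclease, by -1.01 ± 0.06, and BLM, a RecQ helicase, by -0.96 ± 0.05. BRCA1 differed by -1.01.

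Replication-dependent histones, which are made in S phase, were lower in 29 of 33 and higher in 1, with a median of -0.88, and 15 fell at least 2-fold. H4C4 had 9.15, 9.13 and 9.04 with tethered WTp53, against 10.93, 10.93 and 11.31 with vector (-1.95 ± 0.09). H3C12 differed by -1.62 ± 0.08, H3C2 by -1.58 ± 0.07 and H4C5 by -1.12 ± 0.05. The largest fall of all genes was that of H4C2, which averaged 8.74 ± 0.197 with tethered WTp53 and 11.33 ± 0.291 with vector (SD, n = 3 each), 6.02-fold lower with tethered WTp53, and H3C7 was also among the 14 largest falls (-1.83 ± 0.15). H2BC11 was the member that rose (0.47). Histone genes are near-identical copies, so their probe sets may share signal and the value of any single gene is uncertain.

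**Figure D2:**
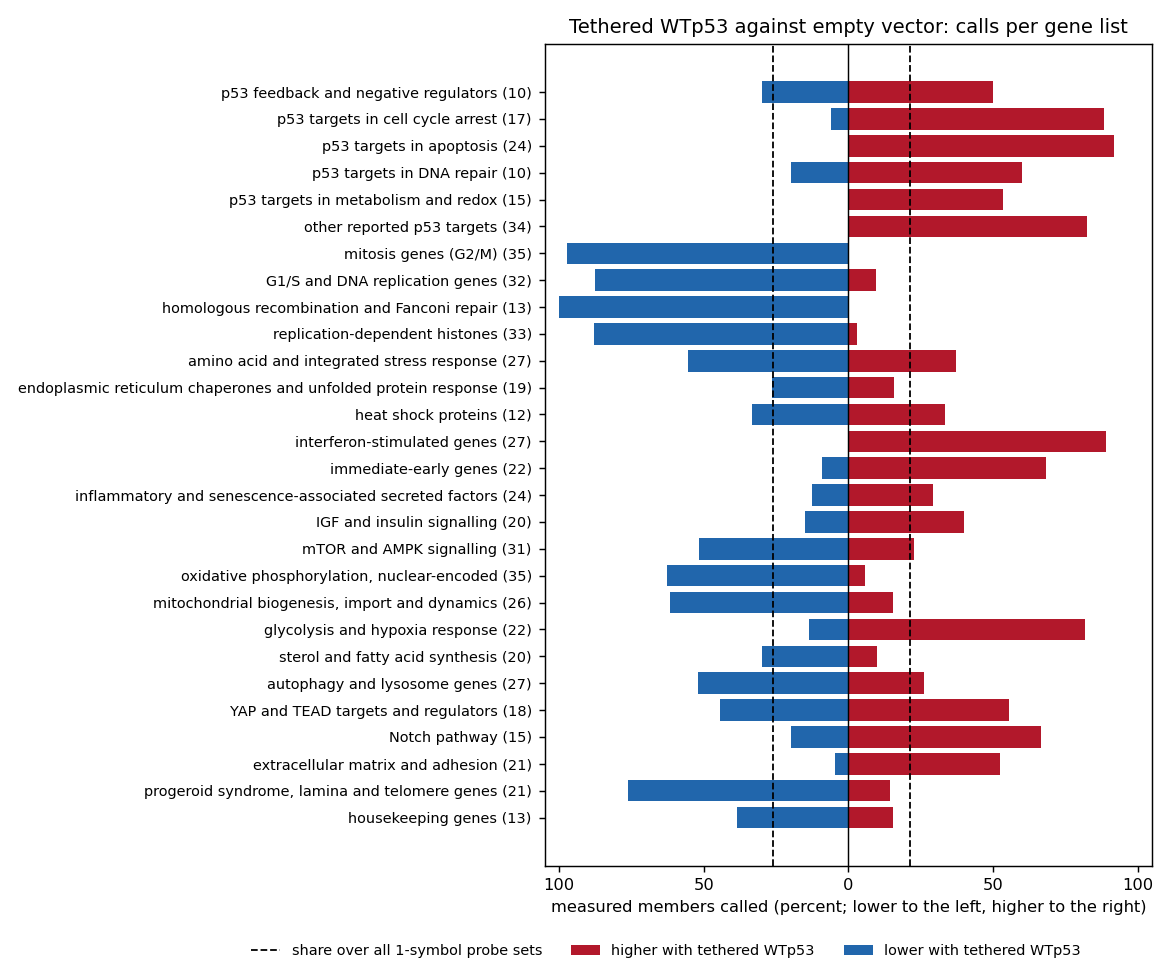
Share of the measured members of each gene list (member number in brackets) called higher (red, right) or lower (blue, left) with tethered WTp53 than with empty vector, in percent, with dashed lines at the shares over all probe sets (21.2% higher and 26.0% lower). The p53 targets in arrest and apoptosis, the other reported p53 targets, the interferon-stimulated genes and glycolysis reach furthest to the right, and those of mitosis, replication, recombination and histones furthest to the left.

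Repressed cell cycle promoters are known to carry E2F elements and the CHR, a cell cycle homology region bound by the DREAM and MuvB complexes. The CHR letters TTTGAA were found on either strand in 36.8% of the promoters of the mitosis and G1/S lists (21 of 57), in 19.4% of those of genes called at least 2-fold lower and in 11.9% of all 14240. An E2F element, TTCCCGC or TTGGCGC on either strand, was found in 38.6% of the mitosis and G1/S promoters (22 of 57), in 20.2% of those at least 2-fold lower and in 12.6% of all. Neither motif contains the other. Histone promoters held the CHR letters in 33.3% and an E2F element in 20.0%. Promoters of the p53 target lists held them in 16.1% (14 of 87) and 17.2% (15 of 87), close to the genes at least 2-fold lower. Those of genes at least 2-fold higher held them in 9.54% and 12.7%. These shares are descriptions without a test, since the mitosis, G1/S and histone lists were drawn up as cell cycle genes. The promoters of the 3 genes of these lists with the largest falls among those holding an element are shown (CLSPN by the brighter of its probe sets), with CHR and E2F letters in capitals.
CLSPN (chr1:35769929-35770228, minus strand): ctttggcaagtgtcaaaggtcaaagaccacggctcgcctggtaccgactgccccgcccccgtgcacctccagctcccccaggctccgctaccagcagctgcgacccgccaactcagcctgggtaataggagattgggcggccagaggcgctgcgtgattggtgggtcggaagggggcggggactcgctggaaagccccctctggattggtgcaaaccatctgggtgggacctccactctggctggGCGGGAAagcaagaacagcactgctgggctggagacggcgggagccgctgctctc
CDK1 (chr10:60778081-60778380, plus strand): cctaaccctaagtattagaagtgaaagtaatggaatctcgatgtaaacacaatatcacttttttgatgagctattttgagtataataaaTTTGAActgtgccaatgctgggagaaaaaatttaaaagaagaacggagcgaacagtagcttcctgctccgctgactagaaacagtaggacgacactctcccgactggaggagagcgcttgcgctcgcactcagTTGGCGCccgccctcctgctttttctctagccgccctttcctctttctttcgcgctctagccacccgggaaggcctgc
TOP2A (chr17:40417847-40418146, minus strand): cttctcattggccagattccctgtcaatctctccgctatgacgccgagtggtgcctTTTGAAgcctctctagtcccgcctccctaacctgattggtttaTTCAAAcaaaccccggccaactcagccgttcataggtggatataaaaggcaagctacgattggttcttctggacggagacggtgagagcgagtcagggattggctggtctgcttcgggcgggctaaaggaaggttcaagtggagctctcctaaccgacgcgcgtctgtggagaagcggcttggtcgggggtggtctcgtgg
CLSPN holds 1 E2F element and no CHR, CDK1 holds 1 of each, and TOP2A holds 2 CHR elements.

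Interferon-stimulated genes are known to be induced by interferon and by sensors of foreign nucleic acid, and to encode antiviral proteins. Of 27 measured members 24 were called higher with tethered WTp53, 19 of them at least 2-fold, and 0 lower, with a median of 1.57. The level depended on the array: the list medians above the vector mean were 1.36 on exp d, 1.48 on exp e and 1.97 on exp f. Without the tethered array exp f, 23 of 27 were called and the median was 1.39. With the spread of all 18 arrays 6 were called. IRF1, an interferon regulatory factor that p53 can also induce, had 11.04, 11.01 and 10.91 with tethered WTp53 and 8.38, 8.16 and 8.40 with vector (2.67 ± 0.07), with exp f not above the others. IFIT3, an antiviral protein with tetratricopeptide repeats, had 9.81, 9.79 and 10.16 with tethered WTp53, against 7.76, 7.92 and 7.77 with vector (2.10 ± 0.09). The ubiquitin-like protein ISG15 rose by 1.59 ± 0.08 and IFI6 by 1.54 ± 0.08, but IFI6 was not called with the spread of all 18 arrays (limma adjusted p = 0.124). OAS1, an oligoadenylate synthetase, had 8.62, 8.68 and 10.18 with tethered WTp53 and 7.13, 7.24 and 6.91 with vector, so that exp f stood apart from d and e.

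IFI44L had 9.50, 9.61 and 10.78 with tethered WTp53 and 7.10, 6.70 and 6.71 with vector (3.13 ± 0.27). It rose by 2.72 without exp f and missed the threshold with the spread of all 18 arrays (limma adjusted p = 0.0863). CCL5, a chemokine, had 9.12, 9.36 and 11.32 with tethered WTp53 against 6.47, 6.70 and 6.59 with vector, a rise of 3.35 ± 0.45 that was 2.65 without exp f. CXCL10, which was named after its values were seen, had 6.91, 6.89 and 10.27 with tethered WTp53 and 5.04, 4.81 and 5.27 with vector. In all of these genes exp d and e already lay above the vector arrays, and exp f lay higher still. RSAD2 (0.80) and BST2 (0.56) were not called, and CMPK2 (0.05) lay close to vector. On tethered exp f RSAD2 lay 1.935 and BST2 1.185 above the mean of exp d and e, so both differences lean on that array. The median of this list was 1.34 for WTp53 against vector in the same set, which shares the vector arrays, and -0.30 for WTp53 against vector in exp 0, 4 and 5, which share no array with it.

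**Figure D3:**
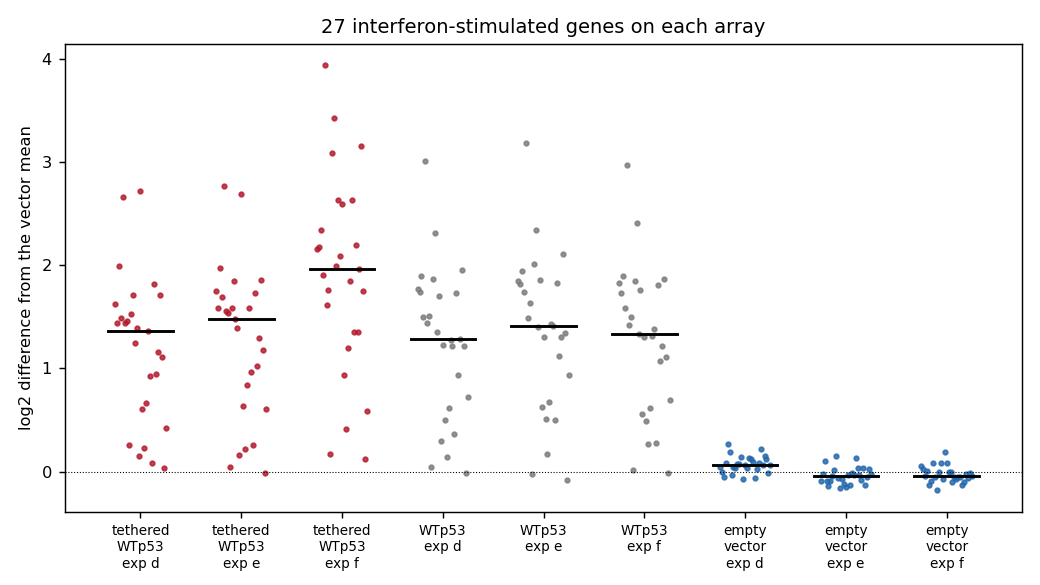
Each point is 1 of 27 interferon-stimulated genes on 1 array, as log2 difference from the gene's mean over the 3 vector arrays (y axis), with black bars at the list median of that array. The tethered arrays exp d and e have medians of 1.36 and 1.48, tethered exp f has 1.97 and the widest scatter, and the vector arrays lie around 0.

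Immediate-early genes encode short-lived transcription factors and phosphatases. Of 22 measured members 15 rose and 2 fell, with a median of 0.37. NR4A2, an orphan nuclear receptor, averaged 9.05 ± 0.061 with tethered WTp53 (SD, n = 3), against 7.04, 6.94 and 7.02 on the vector arrays, a rise of 2.05 ± 0.05. ZFP36, which promotes decay of AU-rich mRNAs, rose by 1.81 ± 0.06, JUNB by 1.52 ± 0.04 and DUSP1, a MAP kinase phosphatase, by 1.12 ± 0.05. FOSB (-0.93) and JUN (-0.16) were lower, and EGR1 (-0.09) was not called. Genes of the amino acid and integrated stress response moved in both directions, with 10 of 27 higher and 15 lower. DDIT4 (REDD1), an inhibitor of mTORC1, rose by 1.99 ± 0.09, ALDH1L2, a mitochondrial folate enzyme, by 1.63 ± 0.07, and CHAC1, which degrades glutathione, by 1.34 ± 0.04. SLC7A11, the cystine transporter, had 9.23, 9.31 and 9.32 with tethered WTp53 and 10.67, 10.74 and 10.65 with vector (-1.40 ± 0.04), and ASNS, asparagine synthetase, differed by -0.87. The list as a whole thus held members on both sides.

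Chaperones changed little. Of 19 genes of the endoplasmic reticulum and unfolded protein response 3 rose and 5 fell, near the shares over all probe sets, with a median of -0.00, and 3 fell without the tethered array exp e or the vector array exp d. HSPA5 (BiP), the main chaperone of that compartment, was not called (-0.05). EDEM1, which sends misfolded glycoproteins to degradation, rose by 1.04 ± 0.05 and PDIA4 by 0.42 ± 0.08, while the stress sensor ATF6 differed by -0.57 ± 0.05 and SEL1L by -0.39 ± 0.05. Of 12 heat shock genes 4 rose and 4 fell, against 21.2% higher and 26.0% lower over all probe sets. The named members were the small heat shock protein HSPB1 (0.91 ± 0.05), its cochaperone BAG3 (0.62 ± 0.04), DNAJB1 (0.43 ± 0.06) and HSPA4 (-0.28 ± 0.05). Of 24 inflammatory and senescence-associated secreted factors 7 rose and 3 fell, against the same 21.2% and 26.0%, and the median (0.05) changed sign to -0.02 with array medians subtracted. IL6 (-0.02), CXCL8 (0.13) and IL1B (-0.06) were not called. HBEGF, a ligand of the EGF receptor, rose by 1.17 ± 0.05 and PLAU, urokinase, by 1.16 ± 0.05. IGFBP3 had 9.83, 9.65 and 9.77 with tethered WTp53 and 8.92, 8.91 and 8.89 with vector (0.84 ± 0.05; limma adjusted p = 0.178 with the spread of all 18 arrays). TNFAIP3 (A20), an inhibitor of NF-kappaB, differed by -1.02 ± 0.08.

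In IGF and insulin signalling 8 of 20 genes rose and 3 fell, against 21.2% higher and 26.0% lower over all probe sets. PIK3R1, the regulatory subunit of PI3 kinase, had 10.91, 10.96 and 10.75 with tethered WTp53 and 9.18, 9.35 and 9.23 with vector (1.62 ± 0.06). The receptor IGF1R rose by 1.20 ± 0.08 (0.53 on its other probe set) and PIK3R3 by 1.13 ± 0.06, and the kinase PDPK1, which phosphorylates AKT, differed by -0.42 ± 0.04, though 2 of its other probe sets were not called (-0.22 on each). Genes of mTOR and AMPK signalling were lower in 16 of 31 and higher in 7. The median was -0.13, and the 7 higher were near the 21.2% of all probe sets. MTOR itself differed by -0.63, RPTOR by -0.59 and the S6 kinase RPS6KB1 by -0.61 ± 0.04. NPRL2, a subunit of the GATOR1 inhibitor of mTORC1, went the other way, with 10.64, 10.51 and 10.37 on the tethered arrays and 8.71, 8.69 and 8.67 on the vector arrays (1.82 ± 0.06). So did the AMPK subunit PRKAB1 (1.07 ± 0.04) and LAMTOR2 (0.63 ± 0.04).

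Nuclear genes of oxidative phosphorylation were lower in 22 of 35 and higher in 2, with a median of -0.24 and 0 changes of at least 2-fold. NDUFA5, of complex I, had 8.05, 8.02 and 8.06 with tethered WTp53 and 8.75, 8.73 and 8.74 with vector (-0.70 ± 0.05). NDUFA2 and NDUFS1, also of complex I, differed by -0.61 ± 0.08 and -0.51 ± 0.04. The 2 that rose were SDHA, the flavoprotein of complex II (0.68 ± 0.06), and UQCRB of complex III (0.15). Of 26 genes of mitochondrial biogenesis, import and dynamics 16 fell and 4 rose, with a median of -0.23. TIMM44 of the import motor (-0.83 ± 0.05), the rRNA methyltransferase TFB1M (-0.62 ± 0.06), the fusion GTPases OPA1 (-0.61 ± 0.05) and MFN1 (-0.49 ± 0.05) and the mitochondrial DNA packaging factor TFAM (-0.41) were lower. The coactivator PPARGC1A was among those that rose (0.44). The mitochondrial ribosomal proteins were grouped by symbol after values were seen. Lower were 26 of 48 MRPL and 23 of 26 MRPS genes, against 26.0% of all probe sets.

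Glycolysis and hypoxia genes went up: 18 of 22 rose and 3 fell, with a median of 0.42. ADM (adrenomedullin, a secreted hypoxia-responsive peptide) had 11.45, 11.47 and 11.39 with tethered WTp53, against 9.79, 9.91 and 9.90 with vector (1.57 ± 0.05). NDRG1 rose by 1.43 ± 0.08, the hexokinase HK2 by 1.19, the mitophagy receptor BNIP3 by 1.16, the glucose transporter SLC2A1 by 1.05 ± 0.08 and PFKFB3, which makes an activator of glycolysis, by 0.94 ± 0.05. PFKM (-0.33), ALDOC (-0.30) and LDHB (-0.16) were lower. Of 20 sterol and fatty acid synthesis genes 6 fell and 2 rose, near the 26.0% of all probe sets called lower, with 12 lower when array medians were subtracted. The named members were ELOVL6 (-0.43 ± 0.05), SQLE (-0.32 ± 0.04), SCD (0.29 ± 0.06) and FASN (-0.25 ± 0.06). Autophagy and lysosome genes were lower in 14 of 27 and higher in 7, with 9 lower when the spread of all 18 arrays was used. The 7 higher were near the 21.2% of all probe sets called higher. TFEB, the master regulator of lysosomal genes, rose by 1.04 ± 0.06, WIPI2 by 0.56 ± 0.05 and GABARAPL1 by 0.38 ± 0.05, while the conjugating enzyme ATG10 differed by -0.52 ± 0.06.

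All 4 ligands on the list of the Notch pathway rose. JAG2 had 10.54, 10.86 and 10.45 with tethered WTp53 and averaged 7.96 ± 0.032 with vector (SD, n = 3), a rise of 2.65 ± 0.09 or 6.29-fold, and JAG1 rose by 1.24 ± 0.05, DLL1 by 0.76 ± 0.06 and DLL4 by 0.28. The receptor NOTCH3 rose by 0.73 ± 0.07, whereas the effectors HES1 (-0.34) and HEY2 (-0.33) were lower and HEY1 (-0.01) was not called. Of 15 measured genes 10 rose and 3 fell, against 21.2% higher and 26.0% lower over all probe sets. With the spread of all 18 arrays 5 were called higher. ANKRD1, a target of YAP and TEAD, had 8.33, 8.19 and 8.38 with tethered WTp53, against 10.57, 10.50 and 10.52 with vector (-2.23 ± 0.05, 4.69-fold lower). The YAP and TEAD list as a whole was split, with 10 of 18 higher and 8 lower (5 lower with the spread of all 18 arrays). ARHGAP29 rose by 1.63 ± 0.09, the angiomotin AMOTL1 by 0.99 ± 0.06 and WWTR1 (TAZ) by 0.88 ± 0.04, and CCN2 differed by -0.31.

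Of 21 extracellular matrix and adhesion genes 11 rose and 1 fell, against 21.2% higher and 26.0% lower over all probe sets. VCAN, the proteoglycan versican, had 9.23, 9.18 and 9.17 with tethered WTp53 and 6.46, 6.22 and 6.40 with vector (2.83 ± 0.06, 7.13-fold). The collagen receptor subunit ITGA2 rose by 2.51 ± 0.10, fibronectin (FN1) by 1.06 ± 0.05 and the laminin chain LAMC1 by 0.84 ± 0.05. ACTA2, smooth muscle actin and a fibroblast marker, had 10.96, 10.83 and 10.74 with tethered WTp53 and 8.05, 7.94 and 8.10 with vector (2.81 ± 0.06); the other 11 fibroblast and endothelial markers were not called. ENO2, a neuronal enolase, rose by 1.70 ± 0.15, and CHGA (0.01), INSM1 (0.05) and NCAM1 (0.02) were not called. Genes of progeroid syndromes, the lamina and telomeres were mostly lower (16 of 21, with 3 higher; 9 lower with the spread of all 18 arrays). LMNA, encoding lamins A and C, rose by 0.70 ± 0.04 and the protease SPRTN by 0.87 ± 0.04, while LMNB1 (lamin B1) differed by -0.54 ± 0.04 and the excision repair nuclease ERCC4 by -0.69 ± 0.04. Among 13 housekeeping genes 2 rose and 5 fell, against the same 21.2% and 26.0%, and 3 fell without the vector array exp d. ACTB (-0.02) and GAPDH (0.07) were not called, whereas TFRC, the transferrin receptor, differed by -0.64 ± 0.05 and B2M, the light chain of MHC class I, by 0.72 ± 0.07 (limma adjusted p = 0.0997 with the spread of all 18 arrays).

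Of the 14 largest falls 7 were in C2H2 zinc finger genes. ZFP30 had 9.62, 9.63 and 9.60 with tethered WTp53 and 11.41, 11.55 and 11.50 with vector (-1.87 ± 0.05, 3.66-fold lower). ZNF607 (-1.81 ± 0.08), ZNF221 (-1.80 ± 0.08), ZNF582 (-1.76 ± 0.07), ZNF43 (-1.74 ± 0.09), ZNF100 (-1.65 ± 0.06) and ZNF829 (-1.65 ± 0.06) were the others. CALHM4, of the calcium homeostasis modulator channel family, differed by -2.09 ± 0.08 and ARL14, an ARF-like GTPase, by -1.93 ± 0.12. Genes whose symbol starts with ZNF were picked as a family after these values were seen. Of these 494 genes 248 were lower and 80 higher, against 26.0% and 21.2% of all probe sets, with a median of -0.18. Related zinc finger genes share sequence, and probe sets of close copies may share signal.

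The contrast of tethered WTp53 with WTp53 asks whether the tethered construct acted differently from untethered p53. The vector arrays cancel from the difference itself, but they enter the spread behind the calls. In this contrast 6213 probe sets (31.9%) were called, 2815 of them higher with tethered WTp53 (14.5%) and 3398 lower (17.5%). Only 23 (0.118%) and 8 (0.0411%) of these differed by at least 2-fold. With only the 6 tethered and WTp53 arrays fitted, 2404 were higher and 3064 lower. With array medians subtracted the split was 2275 higher and 4005 lower, and with the spread of all 18 arrays it was 798 higher and 1136 lower. The leading p53 targets did not all differ. CDKN1A had 11.83, 11.81 and 11.77 with tethered WTp53 and 11.72, 11.71 and 11.70 with WTp53, a difference of 0.09 ± 0.06 (limma adjusted p = 0.241). MDM2 differed by 0.17 ± 0.10 (limma adjusted p = 0.213). A p over the threshold does not show that the constructs acted alike on these genes.

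PLK3 had 11.47, 11.50 and 11.21 with tethered WTp53, against 9.30, 9.37 and 9.40 with WTp53, the largest positive difference of all genes (2.04 ± 0.08, limma adjusted p = 4.72e-07). RAB27B differed by 1.70 ± 0.08, IRF1 by 1.39 ± 0.07 and CHAC1 by 1.38 ± 0.04. CHAC1 had 11.44, 11.41 and 11.34 with tethered WTp53, 10.02, 10.04 and 9.98 with WTp53 and 10.07, 10.00 and 10.09 with vector, so WTp53 lay within the range of the vector arrays or just beside it. MERTK, a receptor tyrosine kinase for apoptotic cells, differed by 1.29 ± 0.08, GDF15 by 1.22 ± 0.09, ULBP3, a ligand of the NKG2D receptor, by 1.19 ± 0.05 and the synaptic adhesion protein LRRTM1 by 1.18 ± 0.07. These 8 largest positive differences were also called with the spread of all 18 arrays. SESN1 went the other way, with 9.72, 9.67 and 9.72 on the tethered arrays and 10.08, 10.06 and 10.14 on the WTp53 arrays (-0.39 ± 0.04, limma adjusted p = 1.62e-04).

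By list, the p53 targets in apoptosis were higher than with WTp53 in 12 of 24 and lower in 0. Those of cell cycle arrest were higher in 7 of 17 and lower in 3. In this contrast 14.5% of all probe sets were higher and 17.5% lower. The list medians were 0.19 and 0.11, against 0.02 over all genes. With the spread of all 18 arrays the apoptosis and arrest lists had 5 and 4 higher. The arrest count was also 4 without the tethered array exp d and without the WTp53 arrays exp d or e. APAF1 (0.68 ± 0.06), DDB2 (0.49 ± 0.06) and DRAM1 (0.40 ± 0.05) were among those higher. RRM2B (0.00 ± 0.05), TIGAR (-0.05 ± 0.05) and XPC (0.13 ± 0.05) were not called. Immediate-early genes were higher in 14 of 22 and lower in 0, with a median of 0.30 (9 of 22 with the spread of all 18 arrays). JUNB had 11.87, 11.87 and 11.88 with tethered WTp53, against 10.83, 10.89 and 10.89 with WTp53 (limma adjusted p = 1.32e-06). ZFP36 differed by 0.99 ± 0.06, DUSP1 by 0.76 ± 0.05 and EGR1 by 0.89. Of 27 interferon genes 2 were called higher and 1 lower, below the 14.5% and 17.5% of all probe sets, with a median of 0.13. Without the tethered array exp f, 7 were lower and the median was -0.05.

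Cell cycle genes were lower with tethered WTp53 than with WTp53. Of the mitosis genes (G2/M) 33 of 35 were lower, against 17.5% of all probe sets. The G1/S list had 28 of 32 lower and homologous recombination 12 of 13. Medians were -0.37, -0.35 and -0.34 in that order. With the spread of all 18 arrays 3, 1 and 0 of these were called. TTK had 9.10, 9.23 and 8.99 with tethered WTp53 and 9.64, 9.67 and 9.67 with WTp53 (-0.55 ± 0.06), and EXO1 differed by -0.68 ± 0.06. Histones were lower in 12 of 33, but in 5 of 33 without the tethered array exp d, in 7 without the WTp53 array exp d, in 6 without the WTp53 array exp e and in 0 with the spread of all 18 arrays. Oxidative phosphorylation genes were lower in 24 of 35, with a median of -0.22, and 15 were called with the spread of all 18 arrays. NDUFA2 had 9.31, 9.28 and 9.55 with tethered WTp53, against 9.96, 10.07 and 10.12 with WTp53 (-0.67 ± 0.08), with the WTp53 arrays near the vector arrays (10.00, 9.90 and 10.07). The median of this list was 0.03 for WTp53 against vector.

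**Figure D4:**
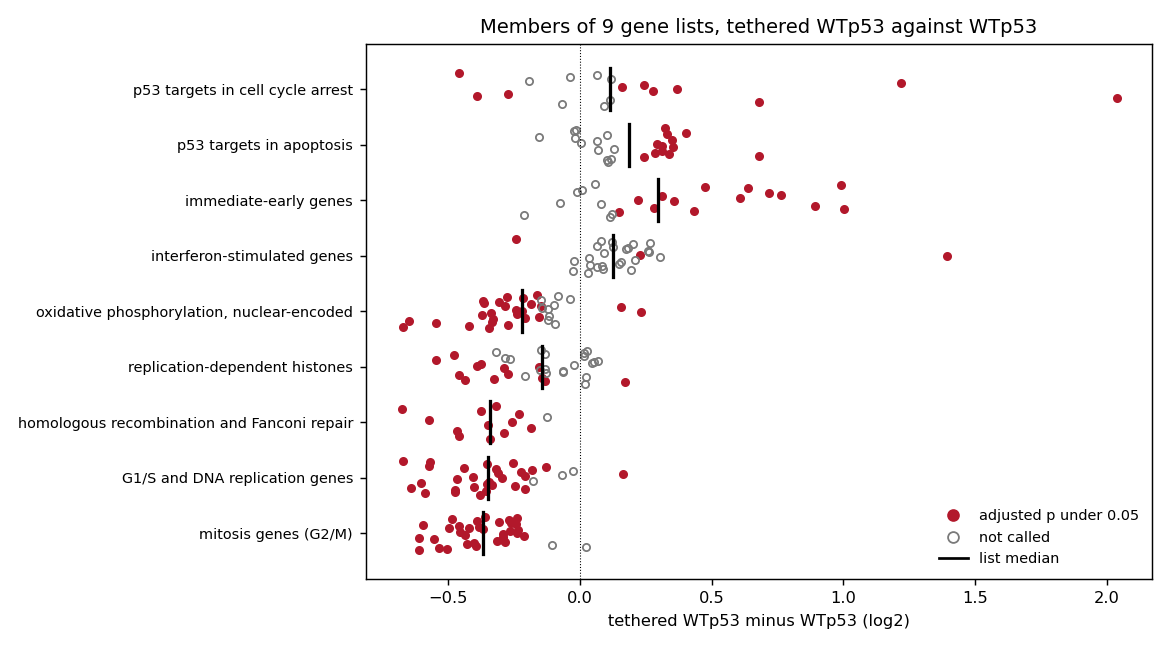
Difference between tethered WTp53 and WTp53 (log2, x axis) for the members of 9 gene lists, 1 point per gene, filled where the limma adjusted p is under 0.05, with black bars at list medians. The mitosis genes and the G1/S and recombination lists lie mostly left of 0, and PLK3 (2.04) and IRF1 (1.39) lie farthest to the right in their lists.

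Of the 8 largest negative differences from WTp53 6 were in small noncoding RNAs. VTRNA1-2, a vault RNA, had 5.66, 5.45 and 6.51 with tethered WTp53, against 7.49, 7.23 and 7.18 with WTp53 (-1.43 ± 0.22); the vector arrays averaged 6.21 ± 0.187 (SD, n = 3). VTRNA1-3 differed by -1.29 ± 0.27, VTRNA1-1 by -1.11 ± 0.17, SNORD114-3 by -1.42 ± 0.21, SNORD4B by -1.29 ± 0.11, and SCARNA9L by -1.02 ± 0.18 (-0.61 on its other probe set). LIMD1-AS1, an antisense transcript, differed by -1.77 ± 0.32, with 5.84, 6.37 and 7.34 on the tethered arrays and 8.23, 8.13 and 8.49 on the WTp53 arrays. In all of these but VTRNA1-1 the tethered arrays spanned a wider range than the WTp53 arrays. Against vector, VTRNA1-1, VTRNA1-2, VTRNA1-3, SNORD114-3 and LIMD1-AS1 were not called with tethered WTp53. Without the tethered array exp f, VTRNA1-1, VTRNA1-2 and LIMD1-AS1 were called lower. WTp53 minus vector in the named order was 0.68, 1.09, 1.46, 1.22 and 1.09, and 0.03, 0.27, 0.38, 0.20 and 0.36 in the first set. SNORD4B (-0.60) and SCARNA9L (-1.39) were lower with tethered WTp53 than with vector. The family counts, chosen after values were seen, were 35 of 61 SNORA, 38 of 115 SNORD and 12 of 16 SCARNA genes lower with tethered WTp53 than with WTp53, against 17.5% of all probe sets. Against vector 17, 30 and 3 of these genes were lower and 6, 7 and 1 higher, beside 26.0% and 21.2% of all probe sets. SH3KBP1, an endocytic adaptor, was the protein-coding gene among them, with 10.85, 10.78 and 11.72 with tethered WTp53 and 12.12, 12.12 and 12.31 with WTp53 (-1.07 ± 0.20). Its other probe set differed by only -0.23 from WTp53 and was not called against vector (0.09), so the value of this gene is uncertain.

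The experiments 0, 4 and 5 hold an untethered WTp53 effect that shares no array with the tethered comparison. Those arrays were normalized apart from exp d, e and f, so the effects were set side by side without a test. Over 18395 genes the correlation of tethered WTp53 minus vector in the second set with WTp53 minus vector in the first was 0.81, as a description across genes. Of 600 genes at least 2-fold higher with tethered WTp53, 569 were above 0 in the first set, and 439 of them by a log2 difference of at least 1. Of 162 genes at least 2-fold lower, 161 were below 0. CDKN1A differed by 3.22 in the tethered comparison and 4.62 with WTp53 in the first set, GDF15 by 3.82 and 2.96, and APAF1 by 2.83 and 3.20. The 31 genes that were at least 2-fold higher with tethered WTp53 and below 0 in the first set included the interferon-related genes OAS2 (2.33 and -0.33), IFIT1 (1.85 and -0.30), IFI44L (3.13 and -0.40) and CCL5 (3.35 and -0.02). They also included ANGPTL4 (3.12 and -0.17), CHAC1 (1.34 and -0.56), HK2 (1.19 and -0.55) and BNIP3 (1.16 and -0.04).

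**Figure D5:**
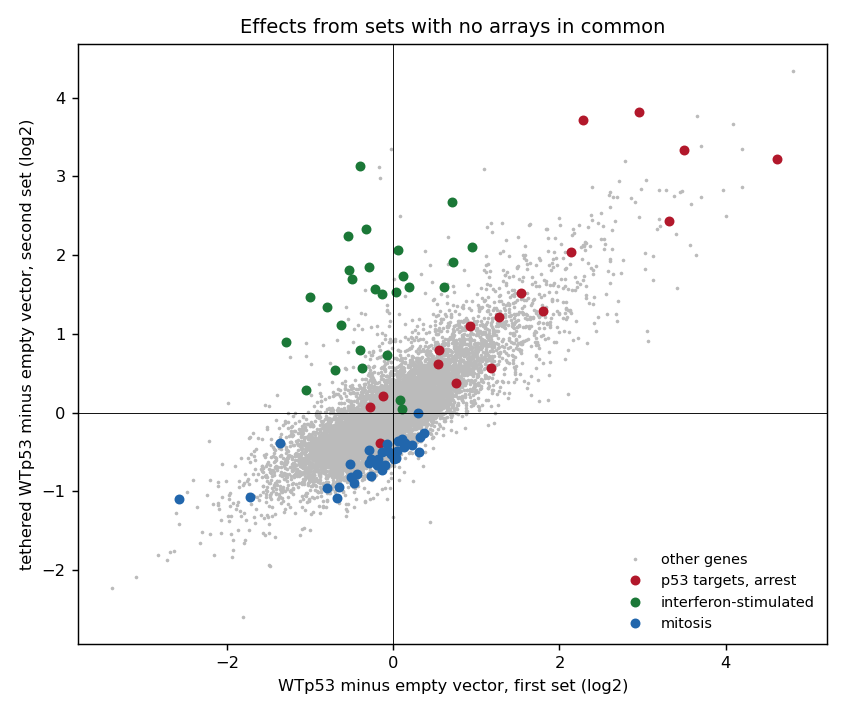
Each point is 1 gene, with WTp53 minus empty vector in the first set on the x axis and tethered WTp53 minus empty vector in the second set on the y axis, both in log2. Most arrest targets of p53 (red) lie in the upper right, the mitosis genes (blue) lie below 0 on the y axis, with CDC20 closest to it (-0.01), and most interferon-stimulated genes (green) lie above 0 on the y axis and around or left of 0 on the x axis.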

How the data were processed

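RNA of transfected, sorted NCI-H1299 cells was measured on Affymetrix Gene arrays. The authors' deposited table holds log2 values made by RMA (background correction, quantile normalization and summarization of probes) in Affymetrix Expression Console, per the submitters' processing notes; the version is not given in the sources used here. First-set arrays (exp 0, 4 and 5) had medians of 4.89 to 4.97, below the 7.01 to 7.07 of the second set, so tests stayed within the second set. The table gives no background or detection measure.

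Probe sets were named from the platform annotation: 19460 had 1 symbol, 1754 several and 12083 none. All 19460 matched the current gene table, and 27 symbols were updated. A gene with several probe sets (788 of 18395) was represented by the brightest on average; called probe sets disagreed in direction in LRRFIP1, PTMA and RBMS1. Group means of the 9 second-set arrays were fitted with limma 3.58.1 in R 4.3.3 (6 residual degrees of freedom), two-sided, with Benjamini-Hochberg adjustment over all 19460 probe sets and a threshold of 0.05. The contrasts tested were tethered WTp53 against vector and against WTp53. The WTp53 effects were given beside them only. The procedure was tested on simulated data with independent noise and few shifted probe sets. That setting differs from these arrays, so it cannot show the error rate of the calls here. Same-lettered arrays of different groups correlated at -0.041 to 0.133 in their deviations from group means, and differently lettered ones at -0.222 to 0.163. These values cannot show whether the letters pair the arrays, and the main fit used no block.

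The genes and lists were chosen with earlier results of these data known. Named are CDKN1A and MDM2, the 14 largest rises and falls against vector, the 8 largest differences from WTp53 in each direction (called and without overlap between groups), the 4 most significant genes per list, and members at the ends of their lists; other list members serve as examples. The transfected gene is not reported here. Alternatives were other scalings, filters, leaving out arrays, all 18 arrays in 1 fit and a replicate block. Promoters came from RefSeq (GRCh38.p14).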

Additional observations from a re-analysis of the deposited data

Results flagged for a closer look

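Rows of the table without exactly 1 gene symbol were outside the comparisons above, and they carried signal as well. Of 13837 such rows, 119 were at least 2-fold higher with tethered WTp53 than with empty vector and 163 at least 2-fold lower, by limma with p-values adjusted over every row of the table. In all 881 were called higher and 2083 lower. They were not named, since the annotation gives them several symbols or none.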

How the results depend on the processing

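No called value of a named gene turned its direction under the alternatives run, and direction was not compared for the other called probe sets. The list medians of secreted factors against vector and of interferon genes against WTp53 changed sign under settings given above. For tethered WTp53 against vector, leaving out 1 array at a time gave 3719 to 4130 probe sets higher and 4605 to 4987 lower, 608 to 648 at least 2-fold higher and 147 to 187 at least 2-fold lower. Over every row of the table, 330 were at least 2-fold lower. For tethered WTp53 against WTp53, leaving out 1 array gave 1971 to 2727 higher and 2630 to 3345 lower, and 17 to 32 and 6 to 10 at least 2-fold. Over every row these were 44 and 72, and with the spread of all 18 arrays 798 were higher and 1136 lower. With the replicate letter as a block 4109 were higher and 5090 lower against vector, and 2825 and 3402 against WTp53. Of 3032 repeats of named-gene results against vector 2999 kept their direction and side of the threshold, 17 lost the call and 16 gained one. Against WTp53, 2107 of 2202 kept both and 95 lost the call. B2M, CDH1, ECT2, HPRT1, IFI44L, IFI6, IGFBP3, PPIA, SCD and VIM lost the call against vector with the spread of all 18 arrays, which mixes separately normalized sets. The number of arrays limits what small differences can show.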
